A study of Mus musculus with 6 samples.

Results

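The S phase and mitosis genes described here were 40 protein-coding genes chosen by symbol: 18 replication members, which act in copying DNA, and 22 mitosis members, which act in dividing the copied chromosomes. All 40 were found among the 45703 genes of the count table, and all 40 were among the 14998 genes kept by a filter on low counts. The data came from cultures of dorsal root ganglia, the clusters of sensory neurons and their glia beside the spinal cord, and served to profile the cells that such a culture holds. Ganglia were taken from wild-type C57BL/6 mice, adult at 4 to 6 weeks, digested with the collagenase blends Liberase TH and Liberase TM, and plated on poly-L-lysine. The medium was DMEM/F12 with 10% fetal calf serum and with the growth factors EGF and FGF at 10 ng/ml, and RNA from 2 dishes was taken at 7 days. There were 6 libraries, replicates 1 to 6, all of 1 group, with no untreated, uncultured or other control group, and every culture carried the same serum and growth factors. The submitters call them biological replicates; which animals went into which culture is not given in the sources used here, so the spread described below may be partly technical.

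Cells that prepare to copy their DNA switch on the genes of the replication machinery around the start of S phase, largely through the E2F transcription factors. Genes of the spindle, the kinetochore and mitotic exit follow in G2 and M phase, and many of them carry a CHR element, bound by the DREAM and MuvB complexes, together with CCAAT boxes bound by NF-Y. Sensory neurons do not divide, whereas glial cells, fibroblasts and other non-neuronal cells of a ganglion can re-enter the cycle in culture.

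The libraries held 20070639 to 22968642 counts, and the TMM factors, which correct for composition, lay between 0.977 and 1.02. Levels are given as CPM, the usual count of a gene scaled for library depth, or, where genes are compared with each other, as CPM per kb of combined exon length. No member was near the detection limit: the lowest count of a replication member in any library was 46.5 (Cdc6) and that of a mitosis member was 117 (Aurka). The tissue label was checked on sums of marker genes in CPM. Each of the neuron, glial lineage and fibroblast sums reached at least 875.6 CPM in every library. The fibroblast sum was mostly collagen RNA. In replicate 1, Col1a1, Col1a2 and Col3a1 had 1046, 1880 and 370 CPM. Dcn, Lum, Pdgfra and Dpt had 29.3, 7.75, 4.09 and 0.871 CPM there. The macrophage sum ran from 16.2 to 168 CPM, the endothelial sum from 8.45 to 121 CPM and the mural sum, for the cells that wrap small vessels, from 274 to 1543 CPM.

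The promoters of 5 members are shown, since they carry the letters in which the sets differed. They run from 150 bases before to 30 bases after the annotated start, 5′ to 3′ on the gene's own strand, from RefSeq on GRCm38.p6, and all 5 genes lie on the minus strand: Mcm6 (chr1:128359676-128359855), Pcna (chr2:132253151-132253330), Cdc20 (chr4:118437314-118437493), Ccnb2 (chr9:70421525-70421704) and Cdk1 (chr10:69352883-69353062). Capitals mark the letters searched for on both strands: the CCAAT box (CCAAT, read as ATTGG on the other strand), the CHR (TTTGAA or TTCGAA) and E2F-type letters (TTTCCCGC, TTTCGCGC, TTTGCCGC or TTTGGCGC). In Mcm6 the first run of capitals holds overlapping E2F-type letters on both strands.
Mcm6: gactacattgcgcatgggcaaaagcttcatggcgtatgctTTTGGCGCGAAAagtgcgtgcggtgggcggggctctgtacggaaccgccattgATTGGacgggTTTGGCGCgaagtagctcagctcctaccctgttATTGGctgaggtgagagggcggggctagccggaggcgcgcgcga
Pcna: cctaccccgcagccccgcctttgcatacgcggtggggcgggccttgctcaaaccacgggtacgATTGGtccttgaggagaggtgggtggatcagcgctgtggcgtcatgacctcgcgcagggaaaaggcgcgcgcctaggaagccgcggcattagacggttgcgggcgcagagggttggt
Cdc20: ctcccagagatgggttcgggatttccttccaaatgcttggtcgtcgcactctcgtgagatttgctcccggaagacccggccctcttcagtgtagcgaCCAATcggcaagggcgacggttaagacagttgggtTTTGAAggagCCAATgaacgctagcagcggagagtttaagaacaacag
Ccnb2: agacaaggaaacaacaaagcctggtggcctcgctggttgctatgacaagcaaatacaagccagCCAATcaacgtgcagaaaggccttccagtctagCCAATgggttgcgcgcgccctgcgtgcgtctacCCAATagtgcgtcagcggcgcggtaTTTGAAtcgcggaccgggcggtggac
Cdk1: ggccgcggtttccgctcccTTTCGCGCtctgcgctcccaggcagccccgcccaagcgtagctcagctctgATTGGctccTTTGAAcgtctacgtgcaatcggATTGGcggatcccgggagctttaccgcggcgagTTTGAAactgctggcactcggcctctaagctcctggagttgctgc

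Mcm6 held E2F-type letters and CCAAT boxes, and Pcna held a CCAAT box only. Cdc20 and Ccnb2 held CCAAT boxes and a CHR, and Cdk1 held all 3 kinds. Over the whole window of 250 bases before to 50 bases after the start, promoters were at hand for 15 replication and 18 mitosis members; those of Mcm4, Gins2, Ccne2, Ccna2, Aurkb, Kif20a and Tpx2 were not analysed here. E2F-type letters were found in 7 of 15 replication promoters (46.7%: Mcm3, Mcm5, Mcm6, Mcm7, Cdc6, Cdt1 and Pola1) and in 1 of 18 mitosis promoters (5.56%, Cdk1). Among 10244 protein-coding genes kept by the filter the share was 4.69%, and among all 27025 genes with a promoter it was 2.60%. In the 200 bases before the start alone, E2F-type letters remained in 5 of 15 replication promoters (33.3%), against 3.30% of protein-coding genes kept.

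CHR letters were found in 14 of 18 mitosis promoters (77.8%) and in 3 of 15 replication promoters (20%: Mcm2, Mcm7 and Fen1), against 16.2% of protein-coding genes kept and 21.7% of all genes with a promoter. The CCAAT box was found in 16 of 18 mitosis promoters (88.9%) and in 10 of 15 replication promoters (66.7%), against 43.2% of protein-coding genes kept. All 14 mitosis promoters with a CHR also held a CCAAT box, a pairing present in 6.94% of protein-coding genes kept. In the 200 bases before the start alone, CHR letters remained in 9 of 18 mitosis promoters (50%), against 10.8% of protein-coding genes kept. A match of letters is a description and not a bound site.

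Replication members had a median level of 6.05 CPM per kb, mitosis members of 8.92 CPM per kb, and all genes kept of 7.20 CPM per kb. The 18 replication members together took 445 ± 80.5 CPM (SD, n = 6), and the 22 mitosis members took 855 ± 161 CPM. The members therefore sat in the middle of the expressed genes rather than at its floor. Pcna, the highest replication member, lay above 92.3% of the genes kept in CPM per kb, and Cdc6, the lowest, lay above 12.8%.

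**Figure D1:**
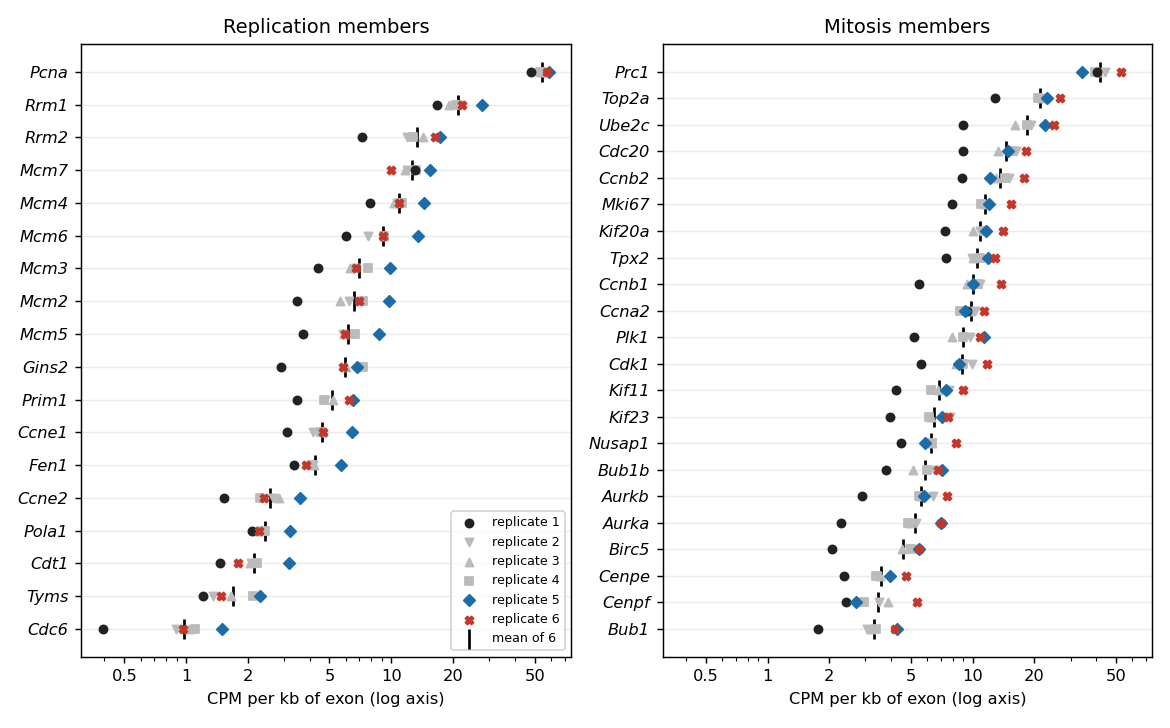
Level of each member in CPM per kb of exon (log axis), one row per gene ordered by mean, with 1 symbol per replicate culture and a tick for the mean of 6; replicates 1, 5 and 6 are in black, blue and red. Pcna (54.4 CPM per kb) and Prc1 (41.9) stand at the top of their panels, and the black symbols of replicate 1 lie at the low end of nearly every row.

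Replication starts with the licensing of origins, in which Cdc6 and Cdt1 load the MCM helicase onto DNA. Cdc6 (chr11:98907709-98923942) had the lowest level of all members, 0.981 ± 0.356 CPM per kb (SD, n = 6). Its CPM was 2.02 at the lowest, in replicate 1, 5.12 at the median and 7.64 at the highest, in replicate 5, a 3.78-fold range that was the widest of the 40 members. Cdt1 (chr8:122568015-122573130) had 2.13 ± 0.580 CPM per kb, with 3.22, 4.52 and 6.97 CPM as lowest, median and highest. Cdt1 exceeded Cdc6 per kb in all 6 libraries, by 2.27-fold. Without division by length Cdc6 had the higher mean (5.02 against 4.67 CPM), and its combined exon length was the larger (5116 against 2191 bases). Geminin (Gmnn), which binds Cdt1 and blocks relicensing, exceeded it in turn by 1.90-fold in all 6 libraries, at 4.01 ± 0.814 CPM per kb.

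The MCM2 to MCM7 proteins form the ring of the replicative helicase in equal numbers. Their RNA levels spanned from 6.12 ± 1.60 CPM per kb for Mcm5 to 12.6 ± 1.85 for Mcm7, with Mcm2 at 6.56, Mcm3 at 6.93, Mcm6 at 9.13 and Mcm4 at 10.9. Mcm6 (chr1:128331575-128359705), whose promoter is shown above, had 26.7 CPM at the lowest, in replicate 1, 40.5 at the median and 59.9 at the highest, in replicate 5. Mcm2 (chr6:88883474-88898780) ranged from 11.8 CPM in replicate 1 over a median of 22.2 to 32.9 in replicate 5. For both genes replicate 1 was the low end and replicate 5 the high end. Per kb, Mcm6 exceeded Mcm2 by 1.42-fold and Mcm3 exceeded Mcm5 by 1.13-fold, each in all 6 libraries. Mcm4 and Mcm7 did not keep an order: Mcm7 was higher in 5 of 6 libraries (log2 difference of Mcm4 over Mcm7 -0.21 ± 0.28, SD, n = 6, two-sided exact sign-flip p = 0.0938).

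Mcm7 (chr5:138164583-138172111) stood apart from the other helicase genes in its order of cultures. Its CPM was 41.4, 38.0, 37.0, 41.9, 49.1 and 31.6 in replicates 1 to 6. It was the only replication member not lowest in replicate 1, and its lowest value was in replicate 6. Its counts were fractional in 5 of 6 libraries, as happens when a read is shared between genes, and the gene encloses 3 microRNA genes on its own strand and overlaps Ap4m1 (26 CPM) by 91 bases on the other strand. The part of these reads in its pattern was not tested. Gins2, a subunit of the GINS complex that activates the helicase, had 3.00, 6.67 and 7.52 CPM as lowest, median and highest. Its value in replicate 1 rested on 69 counts and lay well below the next culture (6.02 CPM), and it was highest in replicate 4.

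DNA synthesis is begun by polymerase alpha and primase, held on the template by the PCNA clamp and finished by the flap nuclease FEN1. Pcna (chr2:132249286-132253180) had the highest level of all members, 54.4 ± 3.77 CPM per kb, and the smallest spread: 60.5 CPM at the lowest, 68.8 at the median and 73.8 at the highest. Its coefficient of variation (CV, the SD as a percentage of the mean) was 6.93%, although replicate 1 was lowest and replicate 5 highest in this gene too. Prim1, the catalytic primase subunit, had 5.31, 7.61 and 9.98 CPM as lowest, median and highest. Pola1, the catalytic subunit of polymerase alpha, had 12.5, 13.6 and 19.0 CPM. Per kb, Prim1 exceeded Pola1 by 2.10-fold in all 6 libraries. Without division by length the order was reversed, with Pola1 higher in CPM in every library. Fen1 had 8.71, 10.8 and 14.8 CPM, and as for Pola1 its value in replicate 5 was set off from the other cultures.

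The supply of deoxynucleotides rests on ribonucleotide reductase, made of a large subunit (Rrm1) and a small one (Rrm2) that is itself limited to S phase, and on thymidylate synthase (Tyms). Rrm1 (chr7:102441695-102469771) was the second highest replication member at 21.3 ± 3.71 CPM per kb, with 66.5, 83.9 and 111 CPM as lowest, median and highest. Rrm2 (chr12:24708254-24714146) had 13.3 ± 3.61 CPM per kb, with 15.6, 29.5 and 37.6 CPM. Rrm1 exceeded Rrm2 by 1.64-fold per kb in all 6 libraries, and the log2 difference was largest in replicate 1 (1.21), where Rrm2 was lowest. Tyms had 1.69 ± 0.434 CPM per kb, with 8.27, 10.7 and 15.7 CPM. Counts of Rrm2 were fractional in all 6 libraries and those of Tyms in 4, so both levels are less certain.

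Cyclin E drives entry into S phase with CDK2. Ccne1 (6.10, 8.98 and 12.6 CPM as lowest, median and highest) exceeded Ccne2 (5.09, 8.36 and 11.9 CPM) by 1.82-fold per kb in all 6 libraries. Both were lowest in replicate 1 and highest in replicate 5. Ccne2 overlaps Ints8 (50.9 CPM) by 5622 bases on the other strand.

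In the order of replication levels per kb, neighbours differed by more than the SD of their difference in 9 of 17 steps, and those 9 steps held in every library. The order was taken from the same libraries, so this is a description and not a test of it. The other steps, among them Rrm2 to Mcm7 (log2 difference 0.04 ± 0.52) and Mcm5 to Gins2 (0.05 ± 0.26), did not separate the genes beyond their spread.

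Entry into mitosis depends on CDK1 and its A and B cyclins. Cdk1 (chr10:69335146-69352912) had 8.85 ± 2.01 CPM per kb, with 24.3, 38.2 and 50.9 CPM as lowest, median and highest. Ccnb1 (chr13:100778739-100786486) had 12.7, 24.0 and 31.7 CPM, and Ccnb2 (chr9:70407689-70421554) had 13.7, 21 and 27.5 CPM. All 3 genes were lowest in replicate 1 and highest in replicate 6. Per kb, Ccnb2 exceeded Ccnb1 by 1.37-fold in all 6 libraries, although without division by length Ccnb1 had the higher mean (23.2 against 20.9 CPM). Counts of Ccnb1 were fractional in all 6 libraries.

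Cyclin A2 (Ccna2), which acts in S phase as well as in G2, varied little: its CPM was 31.5, 34.8, 32.8, 29.4, 31.1 and 38.5 in replicates 1 to 6, a CV of 9.78%. It was lowest in replicate 4 and, with a value in replicate 1 close to that in replicate 5, did not share the low end of the other cyclins. Its level of 9.78 ± 0.956 CPM per kb could not be ordered against that of Ccnb1 (log2 difference 0.01 ± 0.39, exact sign-flip p = 0.969). Ccna2 overlaps Exosc9 (29.1 CPM) by 863 bases on the other strand, and the part of this in its small spread was not tested.

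The mitotic kinases were at lower levels than Cdk1 or close to it. Plk1, which acts on centrosomes, spindle and cytokinesis, had 11.4, 20.6 and 25.2 CPM as lowest, median and highest. Aurora A (Aurka), the spindle pole kinase, had 5.09, 11.4 and 15.7 CPM, the widest range among mitosis members (3.09-fold) and the largest CV (33.5%). Aurora B (Aurkb), the kinase of the chromosomal passenger complex, had 6.31, 12.4 and 16.4 CPM. Aurkb was higher than Aurka per kb in 5 of 6 libraries, a difference that did not pass the test (log2 difference of Aurka over Aurkb -0.14 ± 0.22, exact sign-flip p = 0.156). Survivin (Birc5), which belongs to the same complex as Aurora B, had 7.05, 16.9 and 18.7 CPM, and its value in replicate 1 lay far below the next one, 15.5 CPM.

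The spindle checkpoint genes Bub1 and Bub1b, and the anaphase genes Cdc20 and Ube2c that the checkpoint holds back, were all lowest in replicate 1. Bub1b (13.9, 22.9 and 26 CPM as lowest, median and highest) exceeded Bub1 (7.66, 14.3 and 18.6 CPM) by 1.80-fold per kb in all 6 libraries. Ube2c (chr2:164769929-164772902), the ubiquitin-conjugating enzyme of the anaphase-promoting complex, had 18.4 ± 5.55 CPM per kb, and Cdc20 (chr4:118432901-118437343), an activator of that complex, had 14.6 ± 3.17. Ube2c was higher per kb in 5 of 6 libraries (log2 difference of Cdc20 over Ube2c -0.30 ± 0.21, exact sign-flip p = 0.0625). In replicate 1 the 2 genes were level per kb, with a log2 difference of 0.0003. Without division by length, Cdc20 had the higher CPM in every library. Counts of Ube2c were fractional in 5 libraries and those of Cdc20 in 1.

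Motors and bundling proteins of the spindle held the highest mitosis level. Prc1 (chr7:80294445-80316259), which cross-links the microtubules of the central spindle, had 41.9 ± 6.31 CPM per kb. Its CPM was 137, 151, 139, 135, 116 and 181 in replicates 1 to 6, so replicate 5 and not replicate 1 was lowest. Prc1 overlaps Rccd1 (5.92 CPM) on the other strand by 21669 bases, which is nearly the whole gene, and its counts were fractional in 4 libraries. Tpx2, which activates Aurora A on the spindle, exceeded the motor Kif11 by 1.54-fold per kb in all 6 libraries, at 10.5 against 6.88 CPM per kb. Among the kinesins of cytokinesis, Kif20a (28.8, 43.6 and 55.0 CPM) exceeded Kif23 (13.8, 23.2 and 27.0 CPM) by 1.69-fold per kb in all 6 libraries, but Kif20a overlaps Cdc23 (75.0 CPM) by 4930 bases on the other strand. Nusap1, a microtubule-binding protein of the spindle, had 13.7, 19.2 and 25.2 CPM.

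Among the chromosome and kinetochore proteins, Top2a (chr11:98992947-99024199), the topoisomerase that untangles sister chromatids, had 67.3, 114 and 140 CPM as lowest, median and highest, and 21.2 ± 4.59 CPM per kb. Mki67 (chr7:135689784-135716450), the Ki-67 protein that coats mitotic chromosomes and is used as a proliferation marker, had 80.7, 114 and 156 CPM, and 11.5 ± 2.39 CPM per kb. Cenpe, the kinetochore motor, had 18.5, 27.1 and 37.1 CPM. Cenpf, a kinetochore and nuclear matrix protein, had 27.5, 36.6 and 60.9 CPM and was 1.99-fold higher in replicate 6 than in replicate 5, the widest gap of any member between those cultures. The order of Cenpe and Cenpf per kb changed between libraries (log2 difference 0.06 ± 0.27, exact sign-flip p = 0.750).

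Order within related genes was thus compared in 16 pairs, and 11 pairs had 1 order in all 6 libraries. For those 11 the two-sided exact sign-flip p was 0.0312, the smallest that 64 sign patterns can give, and 0.0455 after Benjamini-Hochberg adjustment over the 16 pairs. Fold differences of the 11 pairs ran from 1.13 for Mcm3 over Mcm5 to 2.27 for Cdt1 over Cdc6. The order depends on length. In CPM without division by length 8 pairs kept 1 order, but these were not 8 of the 11 unchanged. Of the 11, only Bub1b over Bub1, Kif20a over Kif23, Tpx2 over Kif11, Rrm1 over Rrm2 and Mcm6 over Mcm2 kept their direction throughout. The 8 also held Pola1 over Prim1, the reverse of the order per kb, and Ccna2 over Ccnb1 and Cdc20 over Ube2c. In the order of mitosis levels per kb, neighbours differed by more than the SD of their difference in 7 of 21 steps, and 4 of these held in every library (Prc1 to Top2a, Top2a to Ube2c, Ccnb2 to Mki67 and Cdk1 to Kif11). This order too was taken from the same libraries.

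Spread between the cultures was larger for the members than for most genes. All 18 replication members and all 22 mitosis members varied beyond counting noise in a chi-square test of the 6 counts (Benjamini-Hochberg adjusted p from 1.20e-121 for Top2a to 2.58e-06 for Cdt1), where 76.3% of all genes kept did. Without replicate 5 the counts were 15 of 18 and 22 of 22, where 66.9% of all genes kept in that refit varied so. Without replicate 1 they were 17 of 18 and 21 of 22, where 70.5% of all genes kept did. The median CV was 25.8% for replication and 22.1% for mitosis members, against 12.1% for all genes kept and 10.4% for the 10558 genes within the members' range of CPM. The highest culture exceeded the lowest by a median of 2.11-fold for replication members and 2.05-fold for mitosis members, against 1.38-fold for all genes kept. Without replicate 1 the median CV was 17.4% for replication and 14.2% for mitosis members, and 11.5% for all genes kept.

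Against genes of similar abundance the same spread was not called. edgeR's quasi-likelihood fit called 0 of 18 and 0 of 22 members beyond the trend at an adjusted p under 0.05, and 0.0% of all genes kept. At an unadjusted p under 0.05 it called 0 members of either kind, where 5.39% of all genes passed; the smallest unadjusted p was 0.0630 for Mcm2 and 0.0537 for Cenpf (edgeR). DESeq2 marked 0 members as dispersion outliers, which lie more than 2 residual SD above its trend, against 3.41% of all genes. A gene can lie above a trend without such a mark. The edgeR dispersion was above its trend in 9 of 18 replication and 19 of 22 mitosis members, and the share over all genes was not computed. The smallest adjusted p of any gene in the edgeR fit was 0.844, so this test made no call anywhere in the table, and a p that misses the threshold does not show that the members varied like other genes.

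**Figure D2:**
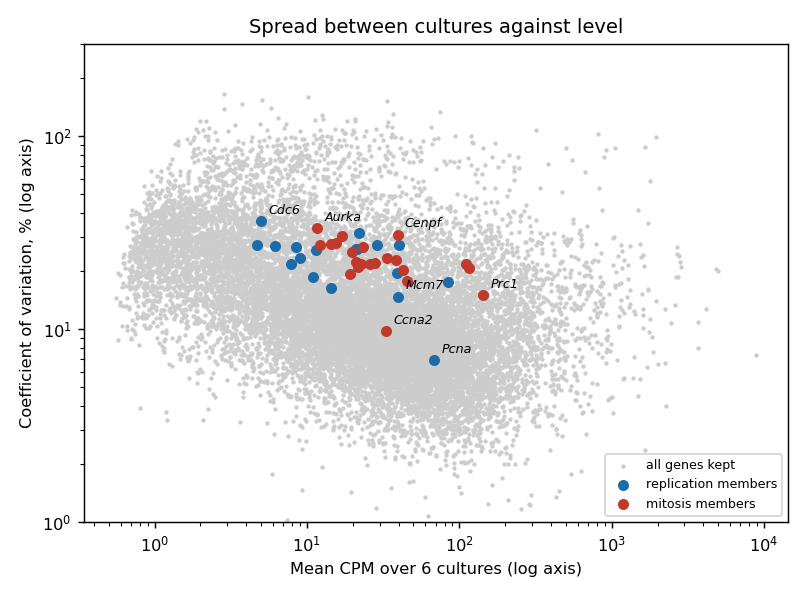
Coefficient of variation over the 6 cultures (%, log axis) against mean CPM (log axis) for all genes kept (grey), replication members (blue) and mitosis members (red). Most members lie above the grey mass at their level, with medians of 25.8% and 22.1% against 12.1%, and Pcna (6.93%), Ccna2 (9.78%), Mcm7 (14.7%) and Prc1 (15.1%) are the 4 lowest members.

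Replicate 1 was the low culture. It had the lowest CPM in 17 of 18 replication members and in 20 of 22 mitosis members, against 23.8% of all genes kept. The exceptions were Mcm7 (lowest in replicate 6), Ccna2 (replicate 4) and Prc1 (replicate 5), and all 3 overlap a gene of at least 1 CPM on the other strand, as 11 of the 40 members did in all. The part of this in their order was not tested. Relative to the mean of the other 5 cultures, the median log2 difference of replicate 1 was -0.65 for replication and -0.79 for mitosis members, and -0.03 for all genes kept. Birc5 (7.05 CPM, against 15.5 to 18.7 in the other 5), Aurka (5.09 against 10.8 to 15.7) and Cdc6 (2.02 against 4.55 to 7.64) were the clearest examples. Counts of Birc5 and Cdc6 were fractional in 4 libraries each, and those of Aurka were whole. In a bulk library, fewer cells in cycle and less of the members' RNA per cycling cell cannot be told apart.

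The high end was split between replicate 5 and replicate 6. Replicate 5 had the highest CPM in 17 of 18 replication members, against 29.2% of all genes kept, and the exception was Gins2. Replicate 6 had the highest CPM in 18 of 22 mitosis members, against 12.5% of all genes kept; Plk1, Bub1b and Bub1 were highest in replicate 5, and Kif23 in replicate 2. Compared directly, all 18 replication members were lower in replicate 6 than in replicate 5, and 19 of 22 mitosis members were higher. Among all genes kept 47.7% were higher in replicate 6.

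**Figure D3:**
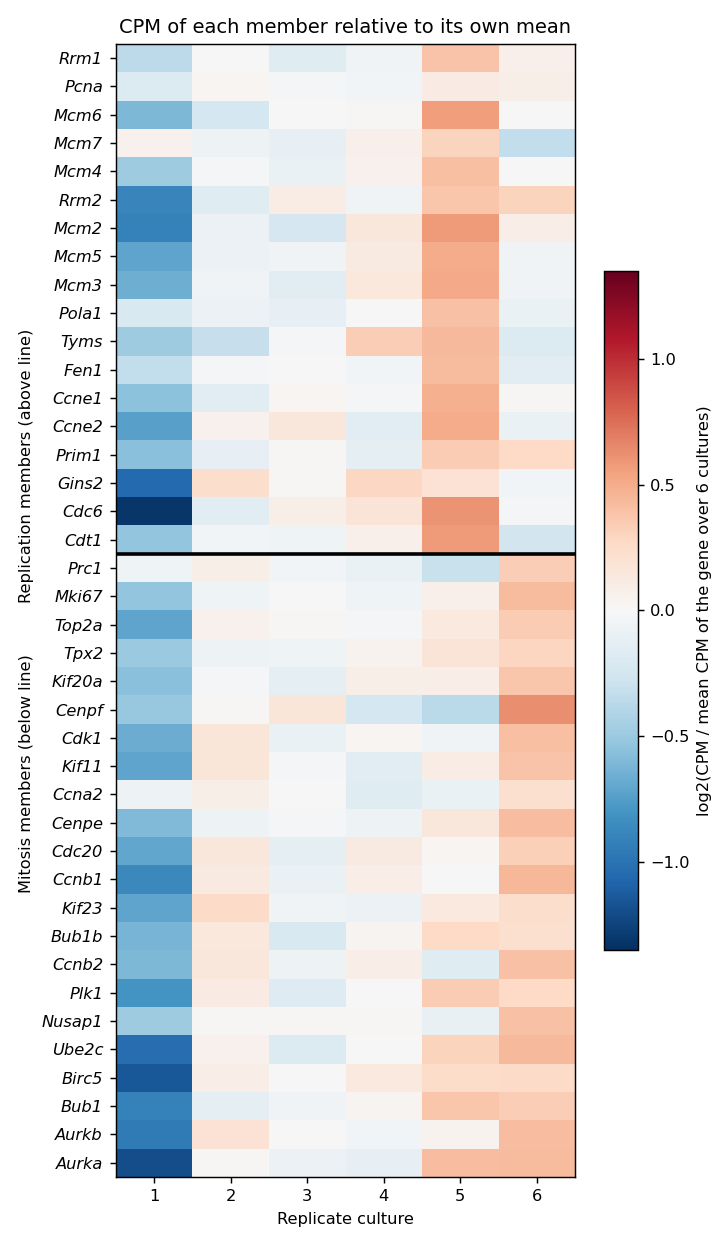
Log2 ratio of CPM to the gene's own mean over the 6 cultures for each member (rows, replication above the line and mitosis below) in each replicate culture (columns). The column of replicate 1 is low in both blocks, while the high values lie in replicate 5 for replication members and in replicate 6 for mitosis members.

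The size of this split was given by the members' medians. The median log2 ratio of replicate 6 over replicate 5 was -0.52 for replication members (range -0.83 to -0.03) and 0.28 for mitosis members (range -0.07 to 0.99), against -0.02 for all genes kept. At the ends stood Cdt1, 1.78-fold higher in replicate 5, and Cenpf, 1.99-fold higher in replicate 6. Pcna (1.02-fold higher in replicate 5), Prim1 (1.05-fold) and Rrm2 (1.06-fold) were the replication members with the smallest gap. These are differences between 2 single libraries, and no test of them was possible.

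**Figure D4:**
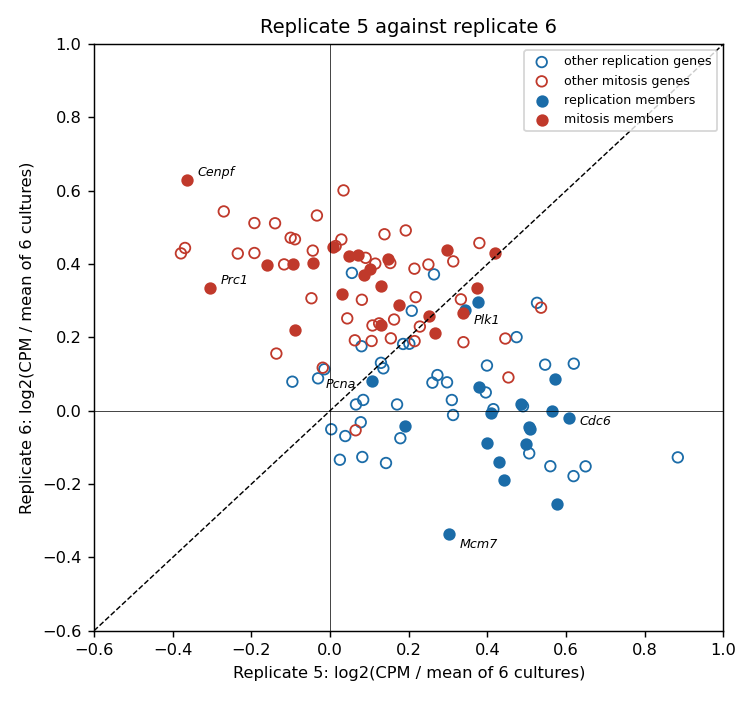
Log2 ratio of CPM to the gene's own 6-culture mean in replicate 6 (vertical) against replicate 5 (horizontal), with replication genes in blue and mitosis genes in red, members filled, other pathway genes open, and equality dashed. All 18 replication members lie on the side of replicate 5 and 19 of 22 mitosis members on the side of replicate 6.

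In percent of each gene's own mean, the median replication member stood at 67.7, 95.2, 98.7, 102.5, 135 and 97.9 in replicates 1 to 6. The median mitosis member stood at 62.4, 105.5, 96.7, 99.9, 107 and 130. Replicates 2, 3 and 4 thus lay near the mean for both sets, and the sets parted in replicates 5 and 6. The ratio of the summed mitosis CPM to the summed replication CPM was lowest in replicate 5 (1.496), highest in replicate 6 (2.46) and between 1.81 and 2.07 in the other 4 cultures. On the log2 scale of the sets' median CPM per kb, the mitosis set exceeded the replication set by 0.53 ± 0.24 (SD, n = 6) and in every culture, from 0.21 in replicate 5 to 0.86 in replicate 6.

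Members tended to be high and low in the same cultures, most closely within their own set. As a description over 6 points that share libraries, the median Pearson's r was 0.858 for the 153 pairs of replication members, 0.915 over the 231 pairs of mitosis members and 0.673 over the 396 pairs across the sets, against -0.001 for all genes kept. These values rest in part on replicate 1: without it the medians were 0.750, 0.734 and 0.043. Without replicate 1 the members of a set thus still tended to be high and low together, which was not seen across the sets.

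Other genes of the same pathways, from lists that hold none of the 40 members, were read beside them. Of 41 further replication genes 40 had a row in the table and 39 passed the filter, and of those 28 varied beyond counting noise, 27 were lowest in replicate 1 and 25 were highest in replicate 5. The shares of all genes kept were 76.3%, 23.8% and 29.2%, so the first count was no higher than the background. Of 44 further mitosis genes, 43 varied beyond counting noise, 42 were lowest in replicate 1 and 35 were highest in replicate 6, where the shares of all genes kept were 76.3%, 23.8% and 12.5%. The edgeR fit called 0 genes of either list beyond the trend. The median log2 ratio of replicate 6 over replicate 5 was -0.18 for the further replication genes and 0.24 for the further mitosis genes, with the same signs as for the members and, for replication, a smaller size. Their medians relative to their own mean were 79.5% in replicate 1 and 117.6% in replicate 5 for replication, and 66.8% in replicate 1 and 131.8% in replicate 6 for mitosis.

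**Figure D5:**
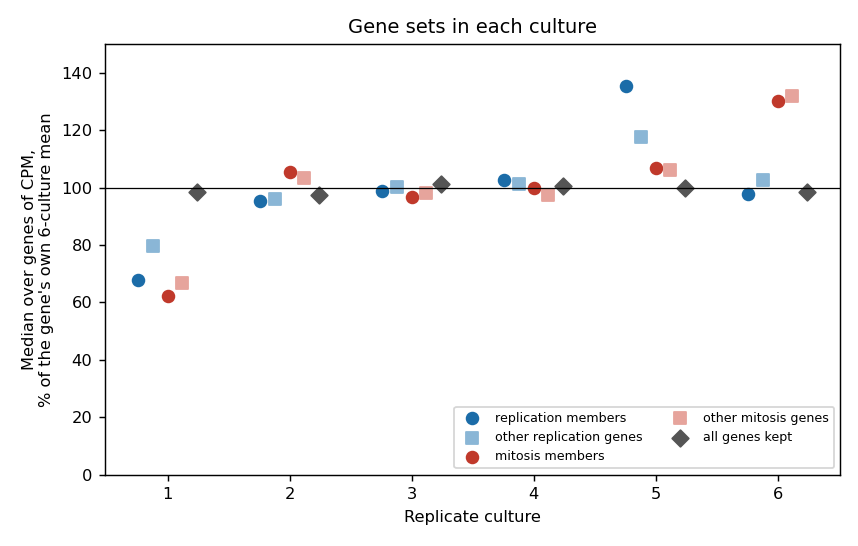
Median over genes of CPM as a percentage of each gene's own 6-culture mean, for the members, the other replication and mitosis genes and all genes kept, in each replicate culture. Both replication sets peak in replicate 5 (135% and 117.6%), both mitosis sets in replicate 6 (130% and 131.8%), all 4 are lowest in replicate 1, and all genes kept stay between 97.4% and 101.4%.

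Within the replication list, Rpa1, a subunit of the single-strand binding protein RPA (23.1 ± 3.33 CPM per kb), and Rfc2, a subunit of the clamp loader (14.6 ± 2.12), were highest. Dna2, a nuclease and helicase (0.963 ± 0.209), and Orc1, a subunit of the origin recognition complex (0.204 ± 0.0921), were lowest. Orc1 did not pass the filter, and its CPM ran from 0.438 in replicate 1 to 2.57 in replicate 5. Within the mitosis list, Bub3, a checkpoint protein (44.4 ± 1.49 CPM per kb), and Racgap1, a partner of Kif23 in the central spindle (17.6 ± 4.07), were highest, and Kif14 (0.979 ± 0.178) and citron kinase (Cit, 0.939 ± 0.179) were lowest. Bub3 was steady, at 93.4 to 101 CPM, while Racgap1 ran from 33.7 CPM in replicate 1 to 73.0 in replicate 6.

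The transcription factors and cofactors that control these genes spread less, with a median CV of 11.9%. Of 21 such regulators, 17 varied beyond counting noise, 10 were lowest in replicate 1 and 10 were highest in replicate 5, against 76.3%, 23.8% and 29.2% of all genes kept, so the first count was near the background. The median log2 difference of replicate 1 from the mean of the others was -0.14. Foxm1, an activator of G2 and M phase genes, had 28.2 CPM in replicate 1 and 57.1 in replicate 6, the ends of its range. Mybl2, which joins the MuvB complex at mitosis genes, had 2.08 CPM in replicate 1 and 6.34 in replicate 5. E2f1, an activator of S phase genes, had 17.8 CPM in replicate 1 and 25.7 in replicate 6. By level, Tfdp1, the dimer partner of the E2F proteins (25.1 ± 2.06 CPM per kb), and E2f4 (18.5 ± 2.24) were highest, and Mybl2 (1.13 ± 0.364) and E2f2 (0.561 ± 0.105) were lowest.

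Markers of several cell types had their ends in the same cultures. The summed CPM of 7 fibroblast markers was lowest in replicate 1 (3339) and highest in replicate 5 (13977), with 4801 in replicate 6. The macrophage, endothelial and mural sums, of 7 markers each, were likewise lowest in replicate 1 (16.2, 8.45 and 274 CPM) and highest in replicate 5 (168, 121 and 1543 CPM), and in replicate 6 they were 42.7, 25.3 and 983 CPM. No marker of these lists was at or under 3 counts in all libraries, but some were close to the floor. Cldn5 had 3, 0, 0, 3, 47 and 0 counts in replicates 1 to 6. Aif1 had 2 counts in replicate 1 and 2 in replicate 2. Aif1, Tie1, Tek, Cldn5 and Kcnj8 did not pass the filter on low counts. The glial lineage sum was highest in replicate 1 (7159 CPM) and lowest in replicate 5 (4818 CPM), and the neuron sum was lowest in replicate 5 (876 CPM) and highest in replicate 3 (1834 CPM). Single markers did not all follow their sums. Replicate 1 was lowest in 7 of 7 fibroblast, 7 of 7 macrophage, 6 of 7 mural and 3 of 7 endothelial markers. Replicate 5 was highest in 6 of 7 fibroblast, 5 of 7 macrophage, 5 of 7 mural and 7 of 7 endothelial markers, and lowest in 7 of 7 glial and 4 of 7 neuron markers. The glial markers were highest in replicate 1 (3), replicate 2 (3, Sox10 among them) or replicate 3 (1). As examples, Col3a1 of fibroblasts had 370 CPM in replicate 1 and 5678 in replicate 5, Csf1r of macrophages 3.35 and 39.6, Cdh5 of endothelium 2.79 and 75.3, Acta2 of mural cells 38.4 and 836, Sox10 of glia 648 and 544, and Tubb3 of neurons 515 and 317. In replicate 6, where 18 of 22 mitosis members were highest, 2 of 7 mural markers were highest too, named here after their values were seen: Cspg4 (246 CPM, with 149 in replicate 5) and Myh11 (54.9 CPM, with 53.5 in replicate 5). The part of cell composition in the low values of replicate 1, in the high replication values of replicate 5 and in the high mitosis values of replicate 6 was not tested.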

How the data were processed

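RNA-seq of 6 cultures was analysed from 1 table of gene counts. Per the labels' protocols, libraries were stranded and poly-A selected. Per the submitters' processing notes, bcl2fastq 2.20.0.422, cutadapt 2.5, STAR 2.7.2b, featureCounts 1.6.4 (Subread) and GRCm38.p6 were used; strand and multi-mapping settings are not given in the sources used here. The deposited values are estimated counts per gene, not normalized: 13.4% to 14.7% of values in a library were not whole, and 22 of 40 members had such a value. Combined exon length is the authors' deposited column. CPM used library totals. In R 4.3.3, filterByExpr of edgeR 4.0.16 selected the genes kept, and counts were rounded for the fits of edgeR and, as an alternative, DESeq2 1.42.0.

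Members and lists were chosen with earlier results of these data known. Variation beyond counting noise was tested by chi-square on TMM-scaled totals. Variation beyond the abundance trend was tested from edgeR's intercept-only quasi-likelihood fit (one-sided F). Both were Benjamini-Hochberg adjusted over 14998 genes, at a threshold of 0.05. Both steps were run on simulated data in which 200 genes were lowered in replicate 1. The simulation for the trend step gave every gene the same dispersion, unlike these data, and no support is drawn from it. Levels of a set are medians of log2(CPM per kb + 0.1), so fold changes of low genes are slightly understated on that scale. Pairs were tested by exact sign-flip permutation over libraries. Named were all members and, of each pathway list, the 2 genes with the highest and the 2 with the lowest level, with Gmnn, E2f1, Foxm1 and Mybl2. Promoters came from RefSeq (GRCm38.p6), for 33 of 40 members. Alternatives covered scaling, filter, pseudocount, length, summary, window and each left-out replicate.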

Additional observations from a re-analysis of the deposited data

Results flagged for a closer look

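In 6 of 64 measures examined, 1 culture stood further from the other 5 than Dixon's critical value for 6 samples allows; chance alone flags about 1 in 20 such measures, or 3.2 of 64. The ratio of the gap to the whole range was 0.668 for Gins2, whose CPM in replicate 1 was 3.00 with 6.02 as the next value. It was 0.730 for Birc5, at 7.05 CPM in replicate 1 with 15.5 next. For the median level of the replication members it was 0.632, at 1.84 log2 CPM per kb in replicate 1 with 2.55 next. At the high end it was 0.701 for Pola1 (19.0 CPM in replicate 5, then 14.4) and 0.627 for Fen1 (14.8 CPM in replicate 5, then 10.99). The sum of the endothelial markers gave 0.728, at 121 CPM in replicate 5 with 39.2 next.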

How the results depend on the processing

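Of the values of the main results recomputed under the alternatives, 145 kept their direction, their side of the threshold and, within a loose tolerance, their size. That tolerance passed a replication median CV of 17.4% without replicate 1, against 25.8%. It also passed 8 ordered pairs without division by length, against 11. The share of replication promoters with E2F-type letters passed at 33.3% in the 200 bases before the start, against 46.7%. The 320 recomputed levels of single members stayed within 1 SD over the 6 libraries, a limit they could hardly pass. Leaving out 1 of 6 libraries cannot move a mean that far, and the scaling factors lay between 0.977 and 1.02. No conclusion is drawn from those 320. Some of the 145 could hardly move either, and no conclusion is drawn from them. They include the counts of members beyond the trend in the edgeR refits. No gene at all was called there, and the smallest adjusted p of any gene in an edgeR refit was 0.298. They also include the mitosis minus replication level under other library scalings, where a library's factor nearly cancels by construction. The 5 main values that moved were these. Without division by length, the levels of the sets were 4.13 (replication, against 2.62) and 4.62 (mitosis, against 3.17) on the log2 scale, in another unit by construction. Without replicate 1, the median CV of the mitosis members was 14.2% and the median r across the sets 0.043. In the 200 bases before the start, the share of mitosis promoters with a CHR was 50%. Leaving out each replicate in turn, the replication members beyond counting noise ran from 15 (without replicate 5) to 18, and the mitosis members from 21 to 22. The share of all genes kept ran from 66.9% (without replicate 5) to 74.8% (without replicate 4). The mitosis median CV ran from 14.2% to 24.7%, the replication median CV from 17.4% to 28.3%, and the median r across the sets from 0.043 to 0.828. The contrasts of replicate 6 with 5 and of replicate 1 with the rest, and the counts over members with whole counts only, were added after seeing the data. No paired analysis was possible because all 6 libraries belong to 1 group. With 6 libraries the sign-flip p cannot go below 0.0312, so a pair passed only where all 6 libraries kept 1 order, and overlapping genes were counted with an unknown strand setting.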
